A study of Homo sapiens with 24 samples.

Results

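The start regions of 7 genes whose promoters are known to hold G-quadruplexes, VEGFA, SIRT1, MYC, KIT, BCL2, TERT and HIF1A, were read from a genome-wide map of 8-oxoguanine (OG). Members were the 1 kb bins whose centre lay within 5 kb of a given start site of each gene, which gave 10 bins per gene and 70 of the 2835235 bins in the table. OG-seq couples biotin to OG bases in fragmented genomic DNA, enriches these fragments on streptavidin and sequences them next to input DNA. The DNA came from HAP1, a near-haploid human cell line, as WT cells and as CRISPR-Cas9 knockouts without MUTYH (MUTYH-/), without OGG1 (OGG1-/) or without both glycosylases (DKO). The labels give no treatment for any group. The study used 2 clones per genotype, and both DKO clones were made from the same OGG1-/ clone. The labels give each genotype 3 OG libraries from these 2 clones, so 1 clone is repeated in each. The table holds 3 columns per genotype that were not tied here to a clone or an experiment. The p-values therefore measure the spread between columns, part of which may be technical. They also treat the columns of a repeated clone as independent. A deposited value is the number of OG reads left after subtraction of scaled input reads. Each column was divided by its own mean over all bins, so a relative value of 1 is the average bin of that column, and a value below 0 means that scaled input exceeded the OG reads.

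A G-quadruplex forms when 4 runs of guanines on the same strand stack into planar tetrads. Guanine is the base most easily oxidised, and runs of guanine are especially prone to it. OGG1 removes OG that is paired with cytosine, and MUTYH removes adenine that was inserted opposite OG. VEGFA encodes a growth factor for blood vessels, HIF1A the oxygen-regulated transcription factor that activates it, SIRT1 a NAD-dependent deacetylase, KIT a receptor tyrosine kinase, BCL2 an inhibitor of apoptosis, TERT the catalytic subunit of telomerase and MYC a transcription factor for growth genes. Oxidation of the G-quadruplex sequence in the VEGFA promoter has been studied as a switch of transcription.

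The motif was searched as 4 runs of at least 3 G separated by loops of 1 to 7 bases, on both strands. It was found in 24 of the 70 member bins (34.3%), against 9.69% of all bins. The member bins held 41 motifs in total, 13 of them around VEGFA and 2 around HIF1A. For the 6 genes below, the motif nearest to the start of the canonical transcript is printed from GRCh38, 5′ to 3′ on its G-rich strand, because the profiles described further on are centred near these sequences. Capitals mark the G runs.
VEGFA: GGGGcGGGccGGGGGcGGGG
SIRT1: GGGcGGGGGcggcgatGGGGcGGG
KIT: GGGaGGGcgctGGGaggaGGGG
BCL2: GGGGcGGGcgcGGGaggaaGGGGG
TERT: GGGGaGGGGctGGGaGGG
HIF1A: GGGGaGGGGagaGGGGGcGGG
All 6 lay upstream of the canonical start, and positions count from it to the motif centre in bp. In VEGFA (chromosome 6, 43770123 to 43770142, position -78), SIRT1 (chromosome 10, 67884587 to 67884610, position -58) and KIT (chromosome 4, 54657885 to 54657906, position -62), the G-rich strand was the plus strand, which is also the strand of the gene. In BCL2 (chromosome 18, 63320118 to 63320141, position -360) and TERT (chromosome 5, 1295089 to 1295106, position -30), the G runs were on the plus strand and the gene on the minus strand. In HIF1A (chromosome 14, 61695436 to 61695456, position -67), the gene is on the plus strand and the G runs on the minus strand. In TERT, 2 more motifs followed at positions -56 and -78.

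Each column rested on 59601849 to 113915679 OG reads and 78621690 to 101608128 input reads, which were recovered from the values as whole reads. The average bin of a column thus had between 21.0 and 40.2 OG reads, next to 27.7 to 35.8 reads of input. Start regions held 173 to 513 OG reads per column, apart from MYC with 563 to 981. The SD between columns of one genotype was 1.54 times the counting SD for BCL2 and 3.06 times for TERT, the lowest and the highest ratio of the 7 genes.

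The start regions of MYC and VEGFA lay above the genome average and that of HIF1A below it. Averaged over the 12 columns, the relative value was 2.998 ± 1.052 for MYC, 1.43 ± 0.49 for VEGFA, 1.39 ± 0.77 for TERT, 1.31 ± 0.49 for KIT, 0.99 ± 0.34 for BCL2, 0.90 ± 0.55 for SIRT1 and 0.70 ± 0.39 for HIF1A (SD, n = 12 columns). MYC ranged from 0.94 to 4.42 with a median of 3.22 and was above 1 in 11 of 12 columns. VEGFA ranged from 0.71 to 2.37 (median 1.33) and was above 1 in 9 columns. HIF1A ranged from 0.0018 to 1.31 (median 0.70) and was below 1 in 9 columns. In exact two-sided sign-flip tests over the columns, MYC (p = 0.00098) and VEGFA (p = 0.011) lay above 1 and HIF1A lay below it (p = 0.025). In the same exact tests KIT (p = 0.054), TERT (p = 0.11), SIRT1 (p = 0.53) and BCL2 (p = 0.95) did not pass 0.05. These p-values are unadjusted over the 7 genes, and the smallest that the test can give is 0.000488. With the planned Benjamini-Hochberg adjustment of these sign-flip tests, HIF1A had an adjusted p of 0.059. Of 60106 gene-start regions, 38.2% lay above 1 and 10.5% below 1 by the same test, so 2 and 1 of 7 are near the shares of all regions.

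**Figure D1:**
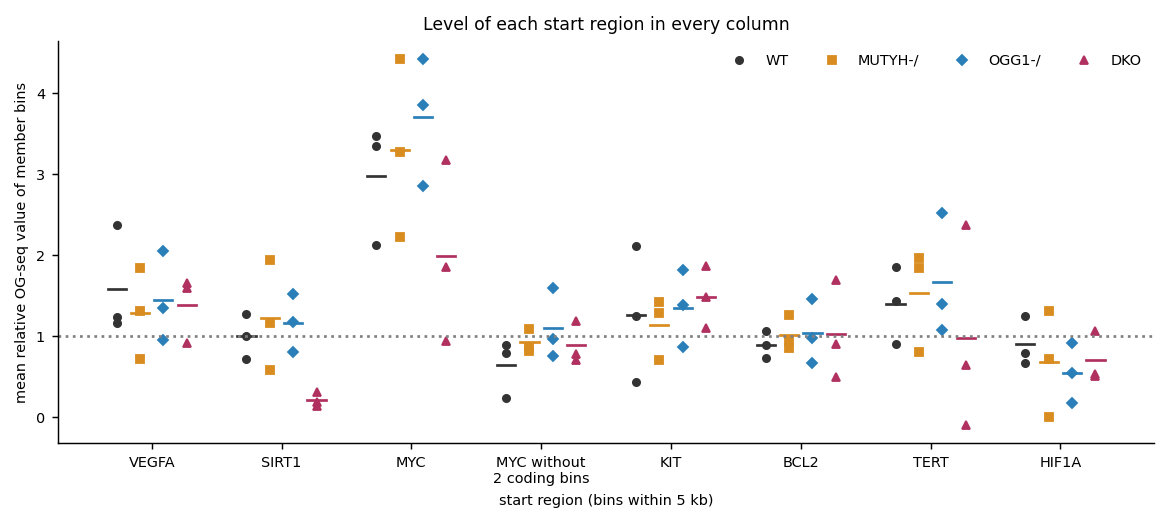
Mean relative OG-seq value (y axis, column mean = 1) of the 10 bins within 5 kb of each start site (x axis); each point is 1 column, colours are genotypes and short lines are means of 3 columns. The 3 DKO points of SIRT1 lie at 0.13 to 0.31, below its other columns, and MYC has a mean of 0.89 without 2 bins of coding exons.

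The ranges of all 7 genes overlapped. Among 19614 protein-coding start regions, 3.88% were lower than HIF1A, 14.05% were lower than SIRT1 and 21.9% were lower than BCL2. For KIT, TERT and VEGFA the shares were 52.3%, 59.96% and 63.0%, and for MYC 99.6%. GC content differed between the regions, from 41.1% in HIF1A to 61.5% in TERT. Among protein-coding regions within 2 percentage points of the same GC content, 16.1% were lower than VEGFA, 13.2% were lower than TERT, 7.33% were lower than SIRT1 and 4.57% were lower than HIF1A. The shares were 8.68% for BCL2, 44.3% for KIT and 99.3% for MYC. After subtraction of the mean of all bins of the same GC percent, VEGFA was at -0.16 ± 0.50 (exact p = 0.27) and HIF1A at -0.20 ± 0.40 (exact p = 0.11). Relative to the mean of the 500 kb on either side, which was 1.55 itself, VEGFA was at -0.12 ± 0.49 (exact p = 0.40).

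The high level of MYC came from 2 of its 10 bins. MYC lies on chromosome 8, and its region covered 127731001 to 127741000 (GRCh38). The bin at 127738001 to 127739000 holds 753 bp of coding sequence and the bin at 127740001 to 127741000 holds 560 bp. Their relative values were 13.95 ± 7.48 and 8.91 ± 4.19 (SD, n = 12 columns). The other 8 bins had mean relative values from 0.15 to 1.57. The non-coding RNA gene CASC11 overlaps the first 8 bins, the first coding bin included. Without the 2 coding bins, which were singled out after their values had been seen, the MYC region had a level of 0.89 ± 0.32 (exact p against 1 = 0.28) and was above 1 in 3 of 12 columns.

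Both OG and input reads were high in these bins. The first coding bin had a mean of 292 OG reads (range 181 to 422) and 243 input reads (range 147 to 315), and the second had 232 OG reads and 216 input reads. The other 8 bins had between 22.4 and 42.5 input reads on average, where the median of all bins was 32.75. In input DNA, the coding bins held 6.94 ± 0.83 times the reads of the other MYC bins, and in OG libraries 8.49 ± 1.21 times. The log2 ratio of OG to input reads, set to 0 for each whole column, was 0.24 ± 0.27 over the coding bins and -0.05 ± 0.15 over the other 8. Over the whole MYC region this log2 ratio was 0.14 ± 0.21 (exact p = 0.040). In VEGFA it was 0.17 ± 0.20 (exact p = 0.011), in KIT 0.17 ± 0.23 (exact p = 0.032) and in HIF1A -0.13 ± 0.19 (exact p = 0.033). By this ratio, 27% of all gene-start regions were higher than 0 and 6.04% were lower at an exact p under 0.05.

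**Figure D2:**
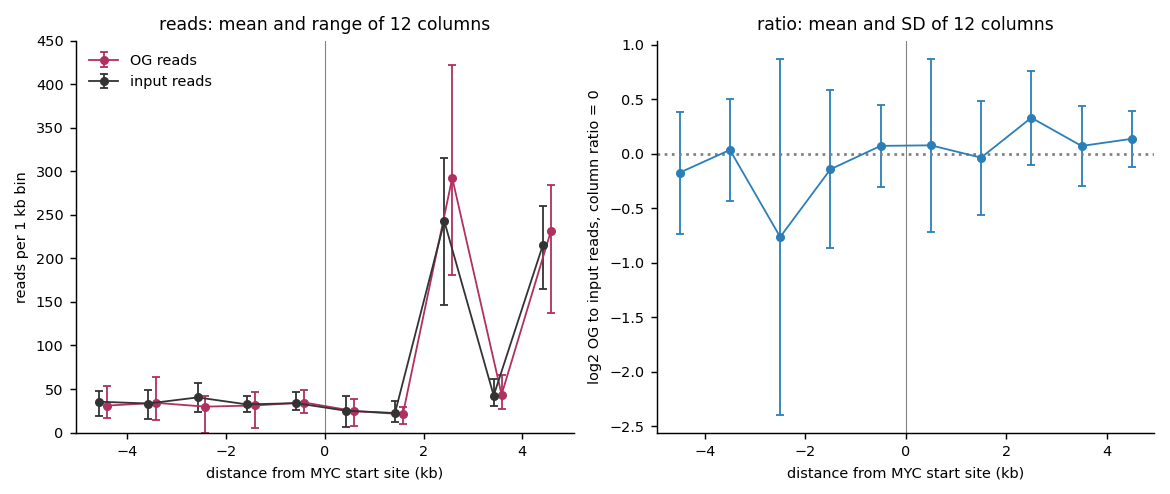
Left, OG and input reads per 1 kb bin (y axis) against the distance from the MYC start site (x axis), as means with the range of 12 columns. Right, log2 ratio of OG to input reads with SD of 12 columns. Both kinds of reads peak in the 2 coding bins, at means of 292 and 232 OG reads, where the log2 ratio is 0.33 and 0.14.

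HAP1 descends from the leukaemia line KBM-7 by way of an experiment in which MYC, SOX2, KLF4 and POU5F1 were introduced with retroviral vectors. Bins of those other genes were therefore read as well, after the MYC values were known. In SOX2, the bins with at least 100 bp of coding sequence held 5.36 times the input reads of its other bins (162 against 30.2). In KLF4 the ratio was 2.16 (56.1 against 26.0), and in POU5F1 it was 1.37 (52.9 against 38.7). OG reads gave ratios of 6.19, 2.42 and 1.43 for the same genes. The 2 SOX2 coding bins had relative values of 10.94 ± 5.89 and 8.21 ± 3.77. The part of vector copies in the MYC result was not tested.

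The start sites did not stand out as common peaks. The bin that holds the canonical start was below 1 in 4 of 7 genes, and 6 of these 7 bins held a motif. Of all bins, 47.5% were above 1, so 4 of 7 below 1 is near the share of all bins. For VEGFA this bin was at 0.50 ± 0.77 (SD, n = 12 columns). The next bin downstream, which has 73.8% GC and was the lowest of VEGFA, was at 0.44 ± 0.93. The highest VEGFA bin lay 3.7 kb upstream at 2.38 ± 1.65. For SIRT1 the bin of the start was at 0.39 ± 0.60, and the highest bin lay 4.2 kb upstream at 1.78 ± 1.84. The lowest bin of SIRT1, 3.8 kb downstream, averaged -0.04 ± 0.77.

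In KIT the bin of the start was at 1.62 ± 1.20, close to the highest KIT bin at 1.77 ± 1.10, and the lowest was at 0.78 ± 1.03. In MYC the bin of the start was at 0.87 ± 1.02 and the lowest bin, 2.5 kb upstream of the given start, at 0.15 ± 1.44. In HIF1A the bin of the start was at 1.10 ± 1.25, and the highest was the next one downstream at 1.95 ± 1.01. The 4 outermost bins upstream of HIF1A were all between 0.11 and 0.43, and the antisense gene HIF1A-AS1 overlaps them as well as the bins near the start. For BCL2 the bin of the start was at 0.36 ± 0.63. The highest BCL2 bin, 2.5 kb into the gene, was at 2.17 ± 1.34 and the lowest, 3.5 kb into the gene, at 0.11 ± 0.84.

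For TERT the bin of the start was at 1.32 ± 1.51 and the adjoining bin downstream, with 885 bp of coding sequence and 74.7% GC, at 0.93 ± 1.56. The lowest TERT bin was at 0.71 ± 1.57, and the highest, 4.5 kb into the gene, at 2.14 ± 3.23. That highest bin had a mean input of 117 reads in WT, 77 in OGG1-/, 49.3 in DKO and 25 in MUTYH-/.

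**Figure D3:**
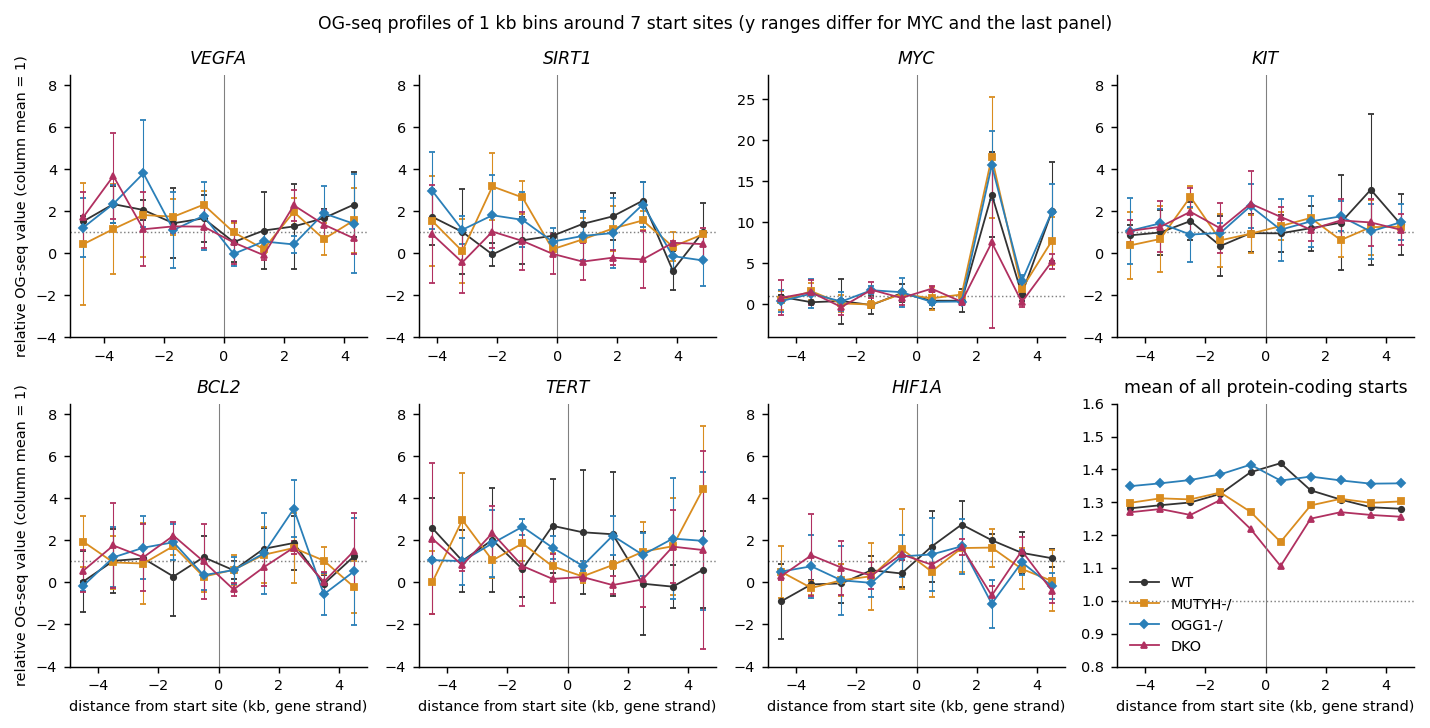
Relative OG-seq value (y axis) of 1 kb bins against the distance from the given start site on the gene's strand (x axis) for 7 genes, as means with SD of 3 columns per genotype; the dotted line marks 1. The last panel shows means over protein-coding starts on a narrower scale, where DKO is at 1.11 and WT at 1.42 in the first kb downstream. MYC has its own scale because 2 of its bins average 13.95 and 8.91.

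The bins with a centre within 1 kb of the given start were then compared with the other member bins of the same gene. In exact sign-flip tests over 12 columns, this start-site contrast was lower at the start for MYC (-2.43 ± 1.30, p = 0.00098), BCL2 (-0.58 ± 0.71, p = 0.0083) and SIRT1 (-0.50 ± 0.67, p = 0.025), and higher for HIF1A (0.53 ± 0.77, p = 0.031). The HIF1A contrast did not pass with the GC correction (0.33, exact p = 0.16), with negative values set to 0 (0.29, exact p = 0.15) or in 6 of the 12 tests that left out 1 column, and SIRT1 did not pass in 5 of those 12. VEGFA (-0.37 ± 0.86, exact p = 0.15), TERT (-0.33 ± 1.68, exact p = 0.55) and KIT (0.17 ± 0.76, exact p = 0.45) did not pass. Over all gene-start regions, 6.55% were lower and 6.43% were higher at the start by the same test, against 3 and 1 of 7 here. The contrast of MYC was 0.22 ± 0.66 without the coding bins (exact p = 0.28). For VEGFA, taking the bin that holds the given start alone gave a contrast of -1.03 (exact p = 0.000488, the smallest possible). The share of all gene-start regions that pass with this bin alone was not computed. That VEGFA bin has 65.3% GC and held 16.6 input reads on average, where the median of all bins was 32.75. Its log2 ratio of OG to input reads, set to 0 for each whole column, was 0.07 ± 0.91. With the GC correction, the contrast was -2.72 for MYC with its coding bins (exact p = 0.00098). It was -0.95 for SIRT1 (exact p = 0.00098) and -0.69 for BCL2 (exact p = 0.0015), while VEGFA, TERT and KIT again did not pass.

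Between subtraction and division of the input, the start-site contrast changed sign in VEGFA, SIRT1 and TERT and kept it in the other 4 genes, and no gene passed in opposite directions on both scales. As log2 ratio of OG to input reads, the start of TERT was 0.79 ± 0.73 higher than its flanks (exact p = 0.0054), KIT 0.42 ± 0.56 higher (exact p = 0.026) and HIF1A 0.25 ± 0.28 higher (exact p = 0.0063). On the same log2 ratio scale BCL2 was at -0.13 ± 0.44 (exact p = 0.32), MYC at -0.07 ± 0.34 (exact p = 0.48), SIRT1 at 0.03 ± 0.50 (exact p = 0.86) and VEGFA at 0.04 ± 0.51 (exact p = 0.78). Over all gene-start regions, 7.32% were higher and 2.8% were lower at the start by this ratio, against 3 and 0 of 7 here. Protein-coding starts in general had a log2 ratio of 0.13 and 0.16 in the first bin on either side of the start, and of 0.070 to 0.091 farther away. Reads were few at the TERT start, where a column had 10 to 96 OG reads over 2 bins, and 4 to 55 reads of input.

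**Figure D4:**
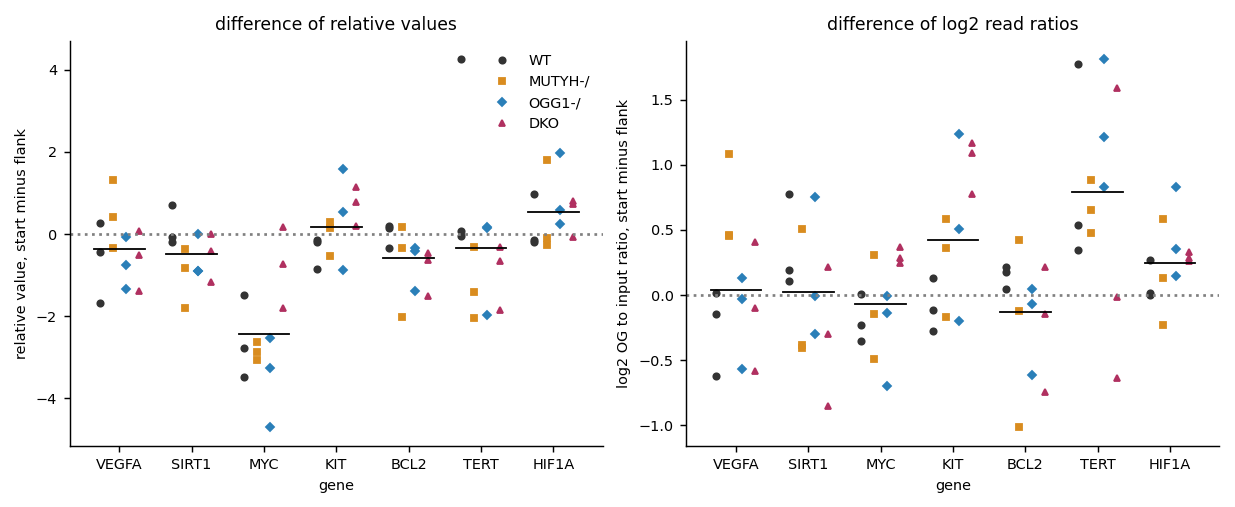
Bins within 1 kb of the start minus the other bins of the region, for 7 genes (x axis), as relative values (left) and as log2 ratios of OG to input reads (right); points are columns by genotype and black lines are means of 12 columns. TERT lies at -0.33 on the left and at 0.79 on the right.

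Bins of very high GC content held fewer input reads than the average bin, and fewer in all knockout columns than in the WT columns. Over all 5454 bins of at least 70% GC, the mean input reads per bin were 18.87, 19.94 and 15.18 in the WT columns. They were 12.78, 10.29 and 9.21 in OGG1-/, 10.39, 8.16 and 9.46 in DKO and 8.86, 6.14 and 7.42 in MUTYH-/. The DKO columns overlapped those of both single knockouts, and the OGG1-/ columns lay above the MUTYH-/ columns. The relative value of these bins was 1.30 ± 0.31 in WT, 0.84 ± 0.14 in OGG1-/, 0.61 ± 0.17 in MUTYH-/ and 0.44 ± 0.26 in DKO (SD, n = 3 columns). Bins from 60% to below 70% GC had means between 1.35 in DKO and 1.83 in OGG1-/. There were 5 member bins of at least 70% GC, 1 in VEGFA, 1 in BCL2 and 3 in TERT.

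At the TERT start, this went with a difference between WT and the knockouts in both kinds of reads. The 2 bins near the start together held 55, 39 and 41 input reads in the WT columns and 4 to 22 in the 9 knockout columns. Their OG reads were 96, 40 and 47 in WT and 10 to 37 in the knockouts. The relative level of these bins was 5.26, 1.40 and 0.96 in WT and 1.22, 0.94 and 1.51 in OGG1-/. It was 0.33, 0.55 and 0.71 in MUTYH-/ and -0.36, 0.89 and 0.11 in DKO. The WT columns were above all MUTYH-/ and DKO columns and overlapped OGG1-/, and the first WT column alone set the WT mean of 2.54. Over all bins of at least 70% GC, the relative values were 1.41, 0.94 and 1.53 in the WT columns. They were 0.69, 0.42 and 0.73 in MUTYH-/ and 0.15, 0.66 and 0.52 in DKO, so this order was not particular to TERT. The part of the input reads in these differences was not tested.

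**Figure D5:**
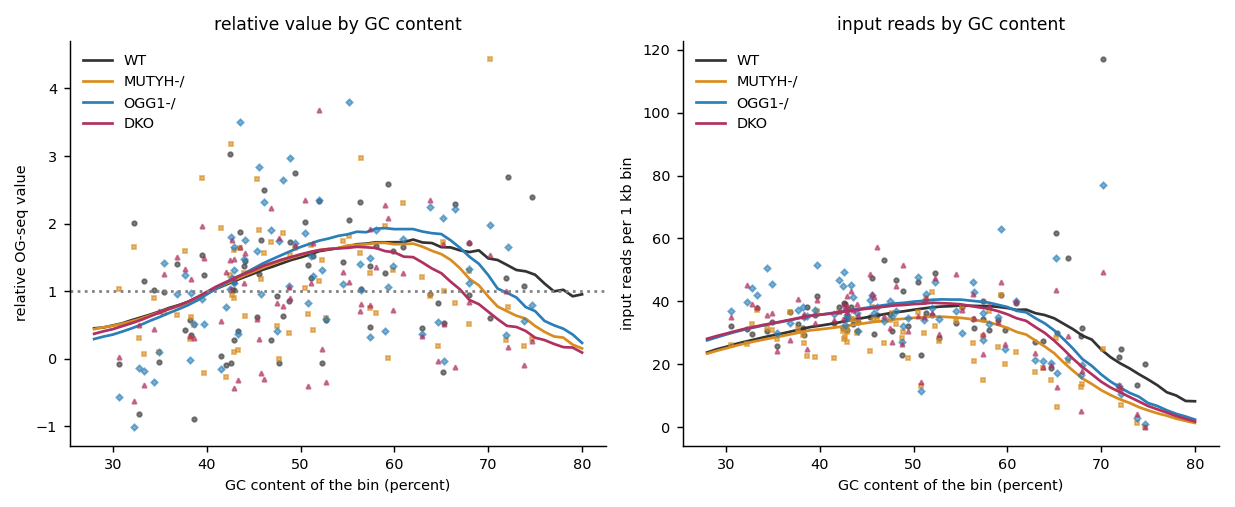
Relative OG-seq value (left) and input reads per 1 kb bin (right) against GC content in percent (x axis); lines are means over all bins of each GC percent by genotype, and points are the member bins by genotype without the 2 MYC coding bins. Over bins of at least 70% GC, the relative value averages 1.30 in WT and 0.44 in DKO.

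Bins with a G-quadruplex motif were not uniformly higher than bins without one within the same start region. The mean difference over the 7 genes was 0.21 ± 0.57 (SD, n = 12 columns), higher in 7 of 12 columns. The first MYC coding bin holds 2 motifs, and without the 2 coding bins the difference was -0.07 ± 0.45, higher in 4 of 12 columns. Over all bins of the genome the same difference was 0.28 ± 0.10 and positive in all 12 columns. Member bins with motifs had a mean GC content of 60.9%, and those without had 45.0%. After subtraction of the mean of bins of the same GC percent, the difference was -0.07 ± 0.03 over all bins and -0.32 ± 0.41 over the members without the coding bins. With the coding bins it was -0.04 ± 0.50 after this subtraction, and 0.13 ± 0.21 as log2 ratio of OG to input reads, where it was above 0 in 8 of 12 columns. By gene, the difference was highest in MYC with its coding bins (1.94 ± 1.99), which was at 0.014 ± 0.60 without them, followed by HIF1A (0.44 ± 1.22), and lowest in SIRT1 (-0.50 ± 0.67), whose 2 motif bins are the 2 bins near the start.

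Whether loss of a glycosylase changed OG at these promoters was asked by comparing each knockout with WT. Of 21 comparisons of a start region, SIRT1 in DKO was the only one in which the groups did not overlap. Its level was 0.72, 1.00 and 1.28 in the WT columns and 0.19, 0.31 and 0.13 in the DKO columns. It was 1.93, 1.17 and 0.58 in MUTYH-/ and 1.52, 1.17 and 0.80 in OGG1-/, both overlapping WT. The log2 difference of DKO to WT, on the scale of log2(value + 1), was -1.78 ± 0.60 (SE), with an adjusted p of 0.92 in limma over all 60106 gene-start regions. Among all regions, the groups did not overlap in 9.89% for MUTYH-/, 10.6% for OGG1-/ and 10.4% for DKO, so 1 of 21 is not above the share of all regions. The 3 knockouts share the same 3 WT columns as reference.

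The log2 ratio of OG to input reads over the SIRT1 region was -0.34, -0.26 and -0.37 in DKO and -0.08, -0.04 and 0.08 in WT. The difference of this ratio was -0.31 with an adjusted p of 0.97 in limma.

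With the cutoffs used by the study, an unadjusted p no larger than 0.01 together with a log2 difference of more than 0.5, SIRT1 in DKO was the single call among the 21. The call was not made on the linear scale, without column scaling, with the GC correction, as log2 ratio or in any of the 3 fits that left out the columns of 1 number (log2 differences from -1.98 to -1.43). Such calls made up 0.832% of all regions for MUTYH-/, 0.68% for OGG1-/ and 0.962% for DKO. The study applied its cutoffs in the edgeR package to features such as CpG islands and exons. The shares given here, from limma on start regions and 1 kb bins, are therefore not directly comparable with its own. At an adjusted p under 0.05, limma called 0 regions (0%) in each knockout, while 2922, 2468 and 3203 regions had an unadjusted p under 0.05 in MUTYH-/, OGG1-/ and DKO. In DKO, MYC had a log2 difference of -0.67 ± 0.35 and TERT of -1.28 ± 0.68 (SE), both with an adjusted p of 0.93 in limma. The MYC value lay between -0.95 and -0.15 when the columns of 1 number were left out in turn, and without the 2 coding bins the relative level was higher in DKO (0.89) than in WT (0.64). The TERT value rested on the first DKO column, and the difference was 0.12 without the columns numbered 1. The other 18 comparisons had log2 differences from -0.93 to 0.40 with SEs from 0.35 to 0.81 and adjusted p of 0.96 or more in limma, which does not show that the levels were alike.

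In single bins, 4 of 210 comparisons of members passed the same cutoffs, where 0.619% of all bins passed for MUTYH-/, 0.544% for OGG1-/ and 0.601% for DKO. The SIRT1 bin 2.2 kb upstream was higher in MUTYH-/ (4.46, 3.67 and 1.41) than in WT (0.14, 0.38 and -0.69), with adjusted p = 0.99 in limma. The HIF1A bin 2.5 kb downstream was lower in DKO (-0.72, -1.01 and -0.13) than in WT (2.34, 1.97 and 1.71), with adjusted p = 0.99 in limma. The groups did not overlap in either bin, as in 10% of all single bins for MUTYH-/, 10.1% for OGG1-/ and 10.1% for DKO. Neither call was made in any of the 3 fits that left out the columns of 1 number. OGG1-/, which passed the cutoffs in neither bin, also lay wholly above WT in the SIRT1 bin (0.87, 0.53 and 4.02). It lay wholly below WT in the HIF1A bin (-1.91, -1.38 and 0.27). DKO overlapped WT in the SIRT1 bin, and MUTYH-/ overlapped it in the HIF1A bin. The separation from WT was thus not particular to the called genotype.

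The other 2 calls were the MYC coding bins in DKO. The first was at 19.4, 10.6 and 10.2 in WT and at -2.78, 7.36 and 18.1 in DKO, so the groups overlapped. In limma it had an adjusted p of 7.8e-28, with 0.00128% of all bins called at an adjusted p under 0.05 in DKO. That p rested on the variance trend across bins, which gave this bin a far smaller SD than its own columns show, and without the trend the adjusted p was 0.97. Without the columns numbered 1 its log2 difference was 0.15 in place of -2.36. The second coding bin was at 7.04, 8.72 and 18.2 in WT and at 5.99, 5.52 and 4.20 in DKO, with adjusted p = 0.99 in limma.

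Start regions of 12 further genes for which a promoter G-quadruplex has been described were set beside the members. They lay between 0.84 (RB1, the retinoblastoma tumour suppressor) and 2.07 (NTHL1, a glycosylase for oxidised pyrimidines), with a median of 1.33, and 9 of 12 were above 1. The median of the 7 members was 1.31 and that of the protein-coding start regions 1.29, with 15215 of 19614 above 1. As log2 ratio of OG to input reads, the 12 further genes had a median of 0.16, the members 0.10 and the protein-coding start regions 0.08.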

How the data were processed

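OG-seq libraries and inputs of HAP1 cells were compared in 4 genotypes. The authors trimmed adapters (cutadapt 2.8), mapped reads to GRCh38 (Bowtie2 2.3.5.1), marked duplicates, counted reads in 1 kb bins without blacklisted regions and subtracted input counts that were scaled on background bins. The deposited values are a score per bin, in OG reads, that can lie below 0. All 12 columns used were mapped to a genotype.

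OG and input reads were recovered as whole numbers from the factors present in each column, with at most 8 bins per column left unsolved. Bins belonged to a gene when their centre lay within 5000 bp of the start site given for it. Distances in kb count from that site, which differs from the canonical start by up to 513 bp. Sign-flip tests were exact, two-sided and run over 12 columns. Their p-values were not adjusted over the 7 genes, a departure from the planned adjustment, since the members and lists were chosen with earlier results of these data known. The share of all gene-start regions (at least 8 bins) that passed is given instead. With the planned Benjamini-Hochberg adjustment, the sign-flip test of the HIF1A level gave an adjusted p of 0.059. The start-site contrasts of SIRT1 and HIF1A both gave 0.055. As log2 ratios, the KIT contrast gave 0.060 and the levels of VEGFA, MYC, KIT and HIF1A each gave 0.070. None of these passed 0.05. Knockouts were compared with WT in limma 3.58.1 (R 4.3.3), with a variance trend and Benjamini-Hochberg adjustment, on log2(value + 1), with columns scaled to the same mean, negative values set to 0 and features above 0 in at least 3 columns. For single bins, limma put full weight on the trend, so that a bin's own spread did not enter. Since input is subtracted, a bin with more DNA copies or better read recovery gets a larger value at the same ratio of OG to input. Read ratios used 0.5 added reads. Tests were checked on simulated data, with counting noise alone for limma and independent normal values for the sign-flip tests. The check therefore does not cover the larger spread between the columns of these data. Canonical starts, the starts of all genes and GC content came from GRCh38 and its annotation. The member windows used the given start sites. Per gene, the bin of the start, the highest, the lowest and any bin past the cutoffs were named, and of the 12 further genes the highest and the lowest. Alternatives changed the GC correction, the scale, the reference, the window, the motif, the pseudocount, the scaling, the filter, the trend, the replicate block and the columns included. Scripts ran in Python 3.11.15 (numpy 2.4.6, pandas 2.3.3, matplotlib 3.10.9).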

Additional observations from a re-analysis of the deposited data

Results flagged for a closer look

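In KIT, the start-site contrast was below 0 in all 3 WT columns (-0.85, -0.14 and -0.20) and above 0 in all 3 DKO columns (0.20, 1.14 and 0.77). The difference of WT minus DKO in KIT was -1.09, and it was not tested. In BCL2 and TERT this contrast also separated WT and DKO, but with DKO below WT. For BCL2 it was -0.34, 0.15 and 0.19 in WT and -1.51, -0.47 and -0.64 in DKO. For TERT it was 4.26, -0.04 and 0.07 in WT and -0.33, -1.85 and -0.67 in DKO. The share of all gene-start regions in which this contrast separates WT and DKO was not computed. For region levels, which are another measure, the WT and DKO groups did not overlap in 10.4% of all regions. The 2 bins near the KIT start held 50, 79 and 40 input reads in WT and 16, 24 and 32 in DKO, while their OG reads were 28, 44 and 63 in WT and 39, 73 and 60 in DKO. As log2 ratio of OG to input reads, the contrast was -0.28, -0.12 and 0.13 in WT and 1.09, 1.17 and 0.78 in DKO. The part of the input reads in this difference was not tested.

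In the input DNA, which enters the table as the amount subtracted, the 2 MYC coding bins held 6.94 times the reads of the other 8 MYC bins, with a range of 6.01 to 8.83 over the 12 columns.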

How the results depend on the processing

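Levels are given here as the difference from 1. Of 508 alternative values of the main results, 399 counted as kept, 18 as of changed sign, 20 no longer passed and 10 newly passed. The other 61, all of them counts of calls, moved further. Levels and start-site contrasts were kept if direction and side of the threshold held, and counts if they stayed within 1.5 times. Values of the G-quadruplex motif contrast were kept if within 0.57, its SD, of the main value, whatever their sign. This motif contrast turned to -0.04 with the GC correction, -0.07 without the coding bins and -0.32 with both, all among the 399. With the mean of bins of the same GC percent subtracted, the level of VEGFA turned to -0.16 and that of HIF1A, at -0.20, no longer passed. The start-site contrast of KIT turned to -0.14 and that of TERT to 0.42, and HIF1A at 0.33 no longer passed. As log2 ratio of OG to input reads, the level of KIT (0.17) passed and BCL2 (0.0063) changed sign. The contrasts on that scale were 0.041 for VEGFA and 0.025 for SIRT1, both of changed sign, 0.79 for TERT, which changed sign and passed, 0.42 for KIT, which passed, and -0.072 for MYC and -0.13 for BCL2, which no longer passed. Against 500 kb on either side, the levels of VEGFA and TERT both turned to -0.12. With any overlap with the window KIT passed at 0.33, and with the annotated gene start HIF1A no longer passed at -0.23 and the contrast of KIT turned to -0.17. Without the MYC coding bins, an alternative chosen after seeing the data, the level of MYC was -0.11 and its contrast 0.22. With negative values set to 0 the contrast of HIF1A was 0.29, and with the bin that holds the given start alone it was 0.49 for HIF1A, both no longer passing, and -1.03 for VEGFA, which passed. The cause was not tested in any of these.

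Among gene-start regions past the study's cutoffs, the log2 ratio gave 264 calls in MUTYH-/, 191 calls in OGG1-/ and 179 calls in DKO in place of 500, 409 and 578, and no column scaling gave 897 in OGG1-/. At an adjusted p it gave 2 in MUTYH-/ and 4 in DKO. In DKO, a pseudocount of 5 gave 5, a linear scale 6, no trend 2 and the GC correction 2, and in OGG1-/ no trend gave 1, all in place of 0. The SIRT1 call in DKO was lost (0 member regions) on the linear scale, without column scaling, with the GC correction and as log2 ratio. Of single bins past the cutoffs, the linear scale, the GC correction, no filter and the log2 ratio gave 28097, 28792, 30169 and 42757 in MUTYH-/, 23382, 23597, 27033 and 32414 in OGG1-/ and 26659, 26646, 29312 and 29183 in DKO, in place of 17337, 15250 and 16840. In DKO at an adjusted p, a pseudocount of 5 gave 17 bins, the linear scale 1, no filter 240, the log2 ratio 2, and no trend and the GC correction 0, in place of 36. The MYC bin was lost (0 member bins) in all of these but the pseudocount. Member bins past the cutoffs numbered 2 in MUTYH-/ without column scaling or with the GC correction, 1 in OGG1-/ in place of 0 in 6 alternatives, and 1 in DKO in place of 3 in 3 alternatives.

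Leaving out each column in turn, the levels stayed between 0.24 and 0.39 for KIT, -0.070 and 0.039 for BCL2, 0.29 and 0.53 for TERT and -0.35 and -0.23 for HIF1A, with 3, 6, 1 and 2 of 12 values past or short of 0.05 or of the other sign. The contrasts stayed between -0.53 and -0.25 for VEGFA, -0.61 and -0.38 for SIRT1, -0.75 and -0.18 for TERT and 0.39 and 0.60 for HIF1A, with 1, 5, 1 and 6 of 12 values on the other side of 0.05. Leaving out the columns of each number in turn, the log2 difference of SIRT1 in DKO stayed between -1.98 and -1.43 but missed the cutoff in all 3 fits, TERT ranged from -2.26 to 0.12 and the first MYC coding bin from -3.96 to 0.15. Member regions called in DKO numbered 0 to 1. Single bins past the cutoffs numbered 10309 to 13763 in MUTYH-/ and 9921 to 10677 in OGG1-/, and those at an adjusted p in DKO 21 to 52. Member bins called numbered 0 to 2 in MUTYH-/, 0 to 1 in OGG1-/ and 1 to 3 in DKO, and at an adjusted p 0 to 1 in OGG1-/ and 1 to 2 in DKO.

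Columns of the same number did not deviate together (correlations of deviations from -0.056 to 0.045 over 18 pairs), so the numbers were not taken as a pairing. With the column number as a replicate block, 473, 388 and 576 regions passed the cutoffs, SIRT1 in DKO stayed at -1.78, and the calls of members did not change. Depth limits single bins, since the median SD over columns of the member bins was 1.21 at a median value of 1.23, and 3 columns per genotype limit each knockout comparison.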
